A study of Mus musculus with 16 samples.

Results

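The WT-labelled empty-vector (EV) line of C2C12 cells, a mouse myoblast line, was compared with the other 3 lines of the same experiment by sequencing of poly(A) RNA. It is represented by 4 of 16 libraries, 2 from proliferating cells in growth medium (GM) and 2 from differentiating cells (DM). The other 12 libraries are 2 in each medium from WT cells that carry a vector expressing spliced MUNC, a noncoding RNA transcribed near Myod1 (WT MUNC), from MYOD-/- cells with the empty vector (MYOD-/- EV) and from MYOD-/- cells with the MUNC vector (MYOD-/- MUNC). All lines were stably transfected, and the labels give C57BL/6 as the strain background of every library. The MYOD-/- cells were made by CRISPR-Cas9 and screened as single cells before the vectors were added, so both MYOD-/- lines share that step. Each genotype and vector is 1 line, and what the genotype or vector does cannot be told apart from what else happened to that line. Whether the 2 replicates of a group were separate cultures is not in the labels, and p-values here reflect the spread between these libraries alone, which may be technical. Genes set apart in the WT-labelled EV line were chosen as those that differed from it in the same direction in each of the other 3 lines, in GM and in DM (adjusted p below 0.05 in all 6 contrasts, edgeR's quasi-likelihood test with Benjamini-Hochberg adjustment). This gave 491 of 14972 genes tested.

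C2C12 myoblasts proliferate in rich medium and, when growth factors are withdrawn, leave the cell cycle, fuse and build contractile fibres. Myod1 encodes the transcription factor that commits cells to this programme. It binds short sites called E-boxes in muscle genes. The programme's late products are the acetylcholine receptor, the sarcomere and the membrane proteins of fusion and repair.

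The label of the line did not match its Myod1 level. Myod1 (GRCm38, chromosome 7, 46376474 to 46379092) stood at 0.291 and 0.0191 counts scaled per library (CPM) in GM and 0.143 and 0.0136 CPM in DM in the WT-labelled EV libraries. In the other 12 libraries it ranged from 3.72 to 13.9 CPM in GM (median 6.18) and from 1.70 to 33.1 CPM in DM (median 15.5). The WT-labelled EV libraries were therefore the lowest in each medium, below every library labelled MYOD-/-. Which part of Myod1 was deleted is not stated in the labels. MUNC, listed as Gm45923, was at 11, 1.49, 8.95 and 1.15 CPM in the WT-labelled EV libraries and at 12.4, 1.30, 12.4 and 2.23 CPM in the MYOD-/- EV libraries, in the order GM replicates 1 and 2 and DM replicates 1 and 2. The MUNC lines held it at 1821 to 2669.7 CPM (WT MUNC) and 43.0 to 132 CPM (MYOD-/- MUNC).

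Libraries held 35.8 M to 108 M estimated counts (median 61.2 M), and their precision rests on 2 libraries per group. Replicates correlated at 0.973 to 0.992 on log2 CPM across genes, which are not independent replicates. The second principal component (21.1% of the variance) held the WT-labelled EV libraries at 56.0 to 113 and the other 12 at -36.2 to -12.1. The splicing factor gene Zrsr1 took 0.00795% to 0.0348% of the counts in libraries of replicate 1 and 1.49% to 13% in those of replicate 2. Each group has 1 library of each kind, and the main models held no term for the replicate number. With such a term, 741 genes in place of 491 passed all 6 contrasts.

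In the comparison of 4 against 12 libraries, with medium as a covariate, 2510 genes were higher in the WT-labelled EV line (16.8% of genes tested) and 1866 were lower (12.5%), or 4376 in all (29.2%). The count fell to 2744 without the WT-labelled EV DM replicate 2. In GM, 2060, 1550 and 1720 genes (13.8%, 10.4% and 11.5%) differed from WT MUNC, MYOD-/- EV and MYOD-/- MUNC, and in DM 4980, 4699 and 4826 (33.3%, 31.4% and 32.2%). The 3 contrasts within a medium share the 2 WT-labelled EV libraries. The 491 genes that passed all 6 with 1 sign (3.28%) were 272 higher (1.82%) and 219 lower (1.46%) in the WT-labelled EV line. Their number fell to 245 and 278 without the WT-labelled EV GM replicate 1 or 2, and to 320 without the MYOD-/- EV GM replicate 2. With WT MUNC in place of WT EV the same rule gave 360 genes (2.4%), and with either MYOD-/- line 0. For a MYOD-/- line the rule also asks for a difference from the other MYOD-/- line, with which it shares the CRISPR-Cas9 step. With unadjusted p below 0.05 (edgeR) those 3 counts would be 754, 5 and 10, and no other tool was run for them. In all 491 genes the 2 WT-labelled EV libraries of a medium lay outside the range of the other 6, which the rule makes likely. Over all genes tested, 8.7% lay above and 5.54% below in both media. Since these contrasts chose the genes, folds of the 491 genes are given as descriptions, as log2 fold change ± SE of the WT-labelled EV line minus the other 12 libraries, with no p-value.

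Of the 491 genes, 472 were protein coding and 13 were long noncoding RNAs, beside 13799 and 880 of the 14972 genes tested. The differences were larger among the lower genes, with a median log2 fold change of -2.65, than among the higher ones, with 1.55. In 289 genes each of the 6 contrasts was at least 1 on the log2 scale, and in 158 at least 2. Over all 14972 genes tested, whatever their sign or p-value, 727 and 251 reached these sizes. In 77 of the 219 lower genes all 4 WT-labelled EV libraries were under 0.5 CPM, and in 39 of the 272 higher genes all 12 others were. Over all 14972 genes tested these counts were 2246 and 1567, so the share among the higher genes was not far from that of all genes. The genes nearest to the threshold of 0.05 were Rragd and Gm16576 just inside (largest adjusted p of the 6 contrasts 0.0499 and 0.0498) and Wnt9a and Nek8 just outside (0.0503 and 0.0505).

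Muscle genes were among the genes lowest in the WT-labelled EV line. Dysf encodes dysferlin, which reseals the muscle membrane, and was at 0.129 and 0.248 CPM in GM and 0.263 and 0.231 CPM in DM. The other libraries held Dysf at 2.71 to 4.71 CPM in GM (median 4.21) and 12.2 to 16.2 CPM in DM (median 12.6). Its level in DM thus lay close together in the other 3 lines and rose from GM in each of them, while all 4 WT-labelled EV libraries stayed under 0.3 CPM (log2 fold change -5.12 ± 0.31). Chrna1, the alpha subunit of the muscle acetylcholine receptor (GRCm38, chromosome 2, 73563281 to 73580338), was at 14.3 and 3.07 CPM in GM and 71.2 and 66.5 CPM in DM. In the others Chrna1 ranged from 40.6 to 192 CPM in GM (median 125) and from 223 to 607 CPM in DM (median 514). It was higher in DM in all 4 lines, and lowest in the WT-labelled EV line in each medium (-3.21 ± 0.51). Synpo2, an actin-binding protein of the Z-disc, was at 1.76, 1.41, 1.59 and 1.23 CPM against 8.03 to 21.1 CPM in GM and 29.3 to 47.6 CPM in DM (-3.86 ± 0.40). Ptk7, a receptor-like protein of cell polarity listed with fusion genes, was at 0.258 to 0.603 CPM against 1.64 to 48.6 CPM, with the highest values in the 4 WT MUNC libraries (21.6 to 48.6 CPM). Whether fewer cells expressed a gene or each cell held less of its RNA cannot be told apart in bulk libraries.

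The promoter of Chrna1 is shown because this receptor gene is a classical target of Myod1. It is from RefSeq (GRCm38.p6, chr2:73580289-73580588, minus strand), runs from 250 bases before to 50 after the gene start, and has the E-box CAGCTG in capitals.
Chrna1: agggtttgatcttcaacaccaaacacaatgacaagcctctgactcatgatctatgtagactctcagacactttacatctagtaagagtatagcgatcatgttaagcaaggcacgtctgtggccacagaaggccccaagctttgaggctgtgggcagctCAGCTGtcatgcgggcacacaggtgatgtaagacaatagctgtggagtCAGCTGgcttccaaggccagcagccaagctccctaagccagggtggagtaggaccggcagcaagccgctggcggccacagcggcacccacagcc
CAGCTG, searched on both strands, was in 15.5% of the 11722 promoters of tested genes in the table, in 15.1% of the 172 promoters of lower genes and in 13.3% of the 211 of higher genes. A related E-box, CAGGTG, was in 17.5%, 26.2% and 22.3%. These shares describe letters in a window of 300 bases and were not tested.

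Of 22 genes tested on a list of myogenic regulators and other muscle genes, 11 were lower and 1 was higher in the 4 against 12 comparison. Over all genes 12.5% were lower and 16.8% higher. The median log2 fold change of the list was -0.62 (-0.000407 over all genes). Beside Myod1, Dysf and Chrna1, the lower genes included Myog, which drives terminal differentiation (-4.04 ± 0.80, adjusted p = 0.00165, edgeR). Myog was near 0 in every GM library (0.0191 to 0.473 CPM) and reached 1.16 and 0.733 CPM in DM in the WT-labelled EV line against 7.91 to 33.7 CPM in the others. The higher gene was Des, the muscle intermediate filament protein desmin (1.02 ± 0.34, adjusted p = 0.0349, edgeR), at 14.2 to 43.2 CPM against 3.03 to 22.7 CPM. That 1 higher call was lost with a mean per group in place of the medium covariate and without either MYOD-/- line. The lower calls stayed at 11 with a mean per group. They became 8 without either MYOD-/- line, 6 at a threshold of 0.01 and 14 without WT MUNC. Myf5, the other myogenic factor of myoblasts, was at 85.5, 102, 86.0 and 78.9 CPM against 57.6 to 153 CPM, with overlapping groups. The summed level of 10 myoblast markers was 559 to 950 CPM in the WT-labelled EV libraries and 609 to 2368 CPM in the others.

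Of 37 sarcomere genes tested, 13 were lower (median -1.88), beside 12.5% lower over all genes. Synpo2 was the member among the 491 genes. The sarcomere genes differed between the media and between the other lines. Myh3, which encodes embryonic myosin heavy chain, was at 0.0542 to 0.275 CPM in all GM libraries. In DM it was at 0.932 and 0.543 CPM in the WT-labelled EV line, 33.2 and 7.90 CPM in WT MUNC and 208 to 314 CPM in the MYOD-/- lines. Its difference from the other lines was more negative in DM (-7.82 ± 1.06, adjusted p = 0.00292, edgeR). The count of 13 sarcomere genes became 23 without the WT MUNC line, 7 without MYOD-/- EV and 6 without MYOD-/- MUNC, and 4 or 1 with replicate 1 or 2 alone. Of 20 fusion and repair genes, which count Dysf again, 11 were lower and 1 was higher (median -0.63). The lower ones included Mymk, the membrane activator of fusion, at 0, 0, 0.230 and 0.136 CPM against 0.0903 to 41.0 CPM (adjusted p = 0.000249, edgeR).

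**Figure D1:**
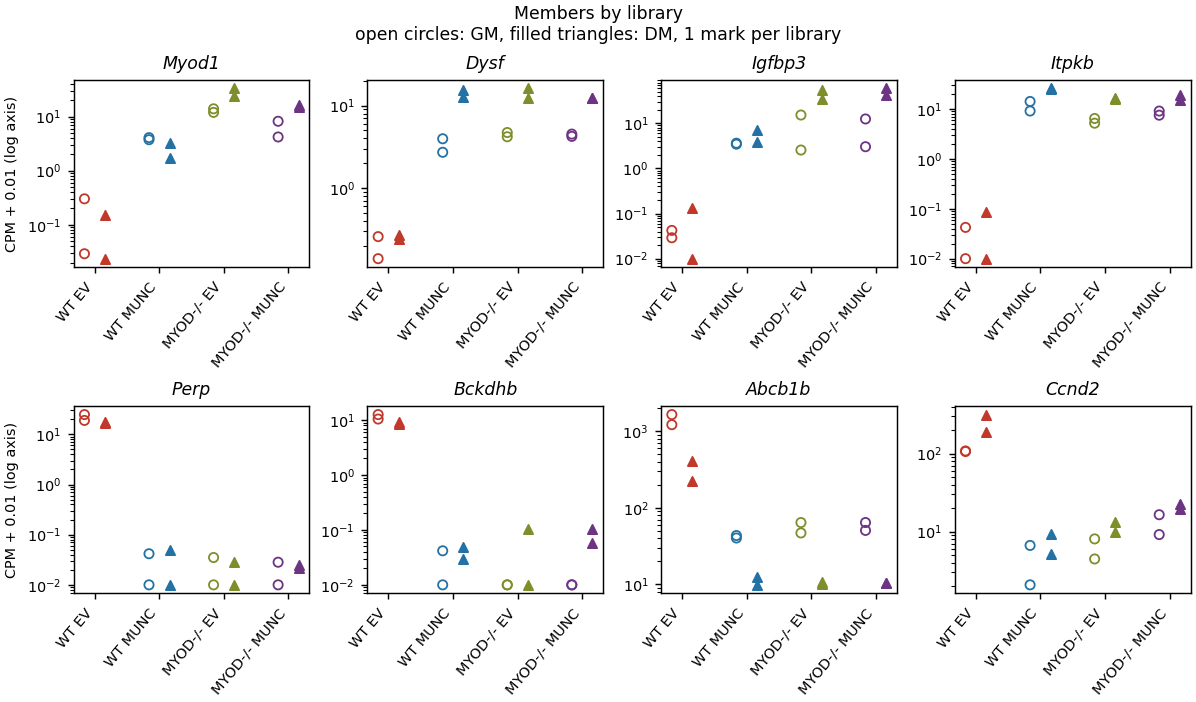
CPM plus 0.01 (log axis) of 8 genes in every library, by line (x axis), with open circles for GM and filled triangles for DM. Each mark is 1 library: Myod1, Dysf, Igfbp3 and Itpkb lie lowest and Perp, Bckdhb, Abcb1b and Ccnd2 highest in the WT-labelled EV libraries of each medium.

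Igfbp3, which binds insulin-like growth factors outside the cell, was at 0.0323, 0.0191, 0.121 and 0 CPM (2, 1, 11 and 0 counts) in the WT-labelled EV libraries. It was at 2.56 to 15.3 CPM in the other GM libraries (median 3.54) and at 3.77 to 59.8 CPM in the other DM libraries (median 38.9). WT MUNC was the lowest of the other lines in DM, with 6.97 and 3.77 CPM. Igfbp7, a related secreted binding protein, was at 9.86, 24.7, 7.85 and 5.73 CPM against 48.9 to 129 CPM (-2.73 ± 0.41). Igf2bp2 encodes an RNA-binding protein that regulates Igf2 and other transcripts in myoblasts. Its level was 1.70 and 1.24 CPM in GM and 21.6 and 14.1 CPM in DM, against 28.5 to 60.7 CPM in GM and 35.8 to 58.7 CPM in DM. The line was thus far below the others in GM and nearer to them in DM. Of 18 genes of the insulin-like growth factor axis, 5 were lower and 2 higher, beside 12.5% and 16.8% over all genes.

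Dll1, a Notch ligand, was at 0.162, 0.0381, 0.263 and 0.109 CPM against 0.524 to 2.85 CPM in GM and 7.15 to 21.0 CPM in DM, where it was higher than in GM in all 3 other lines. The Wnt receptor Fzd1 was at 16, 16.4, 22.4 and 22.1 CPM against 35.9 to 51.9 CPM in GM and 44.7 to 149.7 CPM in DM (-1.61 ± 0.29). Another Wnt receptor gene, Fzd8, had 3, 0, 0 and 0 counts in the WT-labelled EV libraries and at least 10 in each of the others, where WT MUNC stood apart with 3.47 to 5.01 CPM against 0.251 to 0.606 CPM in the MYOD-/- lines. Vangl2, a membrane protein of planar cell polarity, was at 0.0543 to 0.340 CPM against 5.53 to 15.4 CPM (-5.60 ± 0.44). Fst, the activin and myostatin antagonist follistatin, was at 0.0543 to 0.114 CPM against 1.02 to 18.6 CPM in GM and 0.321 to 2.02 CPM in DM. Of 32 Notch and Wnt genes 10 were lower and 3 higher (median -0.83), and of 34 genes of TGF-beta, BMP and smooth muscle 4 were lower, a share near that of all genes (12.5%).

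Several other genes with large lower differences were at or near 0 in the line and present in every other library. Sema3c, Thsd7a and Naalad2 were also much lower but reached 3.67, 3.21 and 1.33 CPM in the line. Itpkb, an inositol trisphosphate kinase (GRCm38, chromosome 1, 180330390 to 180424802), had 2, 0, 7 and 0 counts in the WT-labelled EV libraries. The other libraries held it at 5.19 to 14.2 CPM in GM and 15.3 to 25.9 CPM in DM, with the WT MUNC libraries highest in each medium. Ntpcr, a nucleoside triphosphatase, had 6, 1, 7 and 1 counts against 5.31 to 11.5 CPM. Sall2, a zinc finger transcription factor, had 12, 0, 12 and 0 counts against 4.71 to 15.6 CPM. Both Itpkb and Sall2 had counts in replicate 1 and none in replicate 2 of the WT-labelled EV line, and the same replicate order holds for Myod1, with 18, 1, 13 and 1 counts. Sim2, a transcription factor of the bHLH-PAS family, was at 0.324 to 0.757 CPM against 12.8 to 28.8 CPM (-5.29 ± 0.32). Sema3c, a secreted guidance cue, was at 3.67, 0.477, 2.11 and 1.11 CPM. In DM it reached 99.6 and 121 CPM in WT MUNC and 723 to 1176 CPM in the MYOD-/- lines. Npnt, a matrix ligand of integrins, was at 0.163 to 0.469 CPM against 5.94 to 91.9 CPM, and Ptx3, a secreted pattern recognition protein, at 0.0543 to 0.291 CPM against 1.72 to 22.6 CPM. Mmp15, a membrane matrix protease, was at 0.217 to 0.420 CPM against 1.33 to 83.6 CPM.

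Prrx1, a transcription factor of limb mesenchyme, was at 39.1, 28.1, 66.2 and 48.1 CPM against 60.5 to 112 CPM in GM and 236 to 326 CPM in DM (-1.84 ± 0.20). Pparg, the regulator of fat cell differentiation, was at 5.09, 7.46, 5.15 and 5.59 CPM against 18.4 to 40.7 CPM in GM and 11.9 to 15.4 CPM in DM (-1.65 ± 0.21). Over the fixed marker lists, 4 of 16 fibroblast markers were lower and 2 higher, with a summed level over all 20 listed of 10694 to 13988 CPM against 9247 to 21859 CPM and Tcf21 and Twist1 at 0 in the line. Of 6 adipocyte markers 2 were lower (9.94 to 44.5 CPM against 31.1 to 179 CPM, with Cidec and Lep at 0 in the line). Of 9 epithelial markers 4 were higher (32.3 to 43.6 CPM against 2.11 to 19.3 CPM), with Epcam and Cldn3 at 0. Perp, a gene that the rule chose as higher in the line, made up 17.1 to 24.8 CPM of the line's sum. It added almost nothing to the sums of the other libraries. The gap between the epithelial sums thus rests on Perp, and without Perp their ranges would overlap. Of 6 leukocyte markers 3 were higher (3.64 to 25.5 CPM against 1.91 to 7.34 CPM), with Adgre1 at 0. Endothelial markers had 1 of 6 lower (1.10 to 2.15 CPM against 1.04 to 16.6 CPM, with Tie1, Emcn and Cldn5 at 0), neural and glial markers 1 of 10 higher (969 to 2264 CPM against 799 to 3317 CPM) and chondro-osteogenic markers 1 of 7 higher (143 to 173 CPM against 119.8 to 217 CPM). These counts stand beside 16.8% higher and 12.5% lower over all genes. The part of these markers in the other differences was not tested.

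Some genes were expressed in the WT-labelled EV line and nearly absent from the others. Perp, a p53-regulated membrane protein of desmosomes (GRCm38, chromosome 10, 18845071 to 18857073), was at 24.8 and 19 CPM in GM and 17.1 and 17.3 CPM in DM, from 994 to 1560 counts. None of the other 12 libraries held more than 2 counts of Perp. Perp is also 1 of the epithelial markers counted above. Bckdhb, a subunit of the enzyme complex that breaks down branched-chain amino acids (chromosome 9, 83925111 to 84124240), was at 12.6, 10.4, 8.58 and 9.16 CPM, and the other libraries held 0 to 6 counts. No dependence on medium was detected for either gene (adjusted p = 0.928 and 0.0965, edgeR), and the near absence of counts in the other lines limits that test.

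Ccnd2, a D-type cyclin that drives entry into S phase (chromosome 6, 127125162 to 127152188), was at 106 and 108 CPM in GM and 187 and 317 CPM in DM. The others held it at 2.06 to 16.4 CPM in GM (median 7.32) and 5.16 to 22.6 CPM in DM (median 11.6). The line was thus above every other library in each medium, and its higher values were in DM (4.02 ± 0.37). Of 45 cell cycle genes, 4 were higher and 2 lower, both below the shares over all genes (16.8% and 12.5%). None was among the 491, and the median was 0.04. Of 28 cell cycle inhibitors and p53 targets, 11 were higher (median 0.22), with Perp the member among the 491 genes.

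Among the other higher genes with large differences, Alox5ap, which presents arachidonic acid to 5-lipoxygenase, was at 25.6, 16.6, 63.3 and 43.2 CPM against 0.542 to 2.46 CPM in GM and 2.57 to 7.91 CPM in DM (3.75 ± 0.33). Pla2r1, a receptor of secreted phospholipases, was at 4.88 to 9.24 CPM against 0.0542 to 1.23 CPM (3.45 ± 0.58). Il2rg, the common gamma chain of interleukin receptors, was at 6.52 to 10.3 CPM against 0.0361 to 1.69 CPM. In both Pla2r1 and Il2rg, WT MUNC was the lowest line. Hba-a1, an alpha globin, was at 14.0 and 15.4 CPM in GM and 5.32 and 5.96 CPM in DM against 0.722 to 2.74 and 0.213 to 0.446 CPM (3.59 ± 0.27), and its reads may be shared with a near-identical copy. Hapln4, a hyaluronan link protein, was at 40.9 to 75.4 CPM against 4.92 to 11.2 CPM, and its difference hardly varied over the 6 contrasts (2.61 to 3.01).

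Abcb1b, a drug efflux pump of the P-glycoprotein family (GRCm38, chromosome 5, 8798147 to 8866314), was at 1212 and 1641 CPM in GM and 224 and 413 CPM in DM. The other libraries held it at 40.3 to 64.2 CPM in GM (median 48.8) and 9.87 to 12.5 CPM in DM (median 10.4). Abcb1b was lower in DM than in GM in all 4 lines, and the difference of the line was close to equal in the 6 contrasts (4.63 to 5.09). The 3 other lines lay close together, and no spread among them was detected (adjusted p = 0.732, edgeR).

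Genes next to Abcb1b were higher with it. Crot, a peroxisomal carnitine acyltransferase, was at 696, 613, 831 and 978 CPM against 26.2 to 74.8 CPM (3.99 ± 0.14). Tmem243, a transmembrane protein gene, was at 96.9, 118, 91.8 and 89.1 CPM against 5.08 to 8.48 CPM (3.95 ± 0.12). Dmtf1, a cyclin D-binding transcription factor, was at 104, 102, 127 and 109 CPM against 35.2 to 45.9 CPM (1.46 ± 0.07). Crot, Tmem243 and Dmtf1 are consecutive tested genes between 8966033 and 9161806, and all lay outside the range of the other libraries. On the other side Abcb1a, the second P-glycoprotein gene (8567091 to 8748575), was at 3.27, 4.46, 9.94 and 21.0 CPM against 0.0268 to 0.438 CPM, with reads possibly shared with Abcb1b. Abcb4, the phospholipid exporter between Abcb1b and Crot, was low everywhere (6 to 19 counts in the line, 0 to 2 in the others) and did not pass all 6 contrasts. Slc25a40, a mitochondrial carrier (8422730 to 8454839), was at 13.3 to 29.0 CPM against 14.8 to 23.2 CPM (0.15 ± 0.15), and Dbf4, a replication kinase subunit, at 0.27 ± 0.13, neither past the test (adjusted p = 0.473 and 0.130, edgeR). Adam22, a cell adhesion protein gene beyond them, was higher in the 4 against 12 comparison (1.52 ± 0.38, adjusted p = 0.00807, edgeR), but in GM its 3.40 and 3.64 CPM lay within the range of the others (2.23 to 5.71 CPM). Tmem243 and Dmtf1 overlap by their ends, and the labels do not give the strand setting of the counting.

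**Figure D2:**
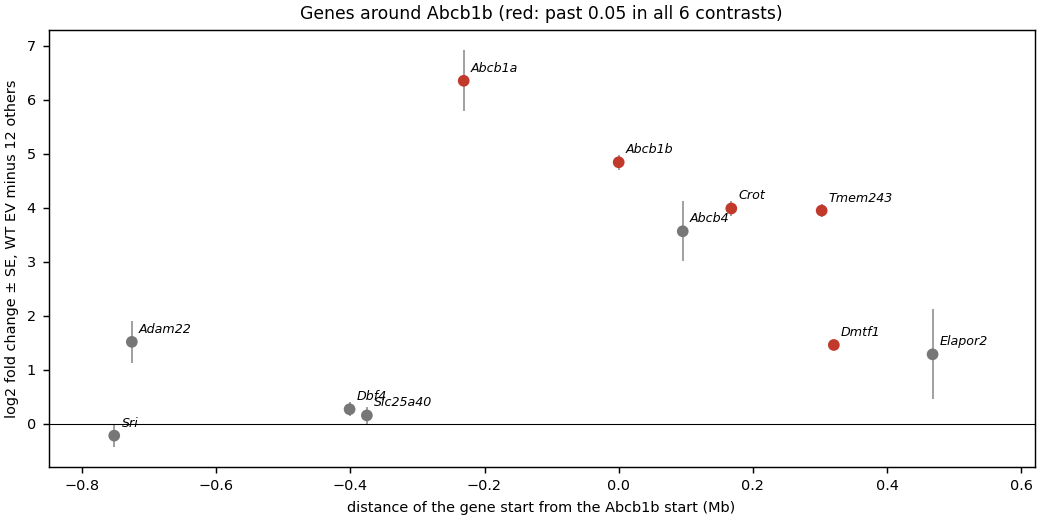
Log2 fold change ± SE (y axis, WT-labelled EV line minus the other 12 libraries) of the tested genes around Abcb1b against the distance of their start from that of Abcb1b in Mb (x axis). Red points passed all 6 contrasts: Abcb1a, Abcb1b, Crot, Tmem243 and Dmtf1, while Sri, Dbf4 and Slc25a40 lie near 0.

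Some interferon-response and antigen presentation genes were among the higher genes. Interferons signal through a complex of STAT proteins and Irf9 that binds a repeated GAAA element, and the induced proteins block viruses and load peptides onto major histocompatibility complex (MHC) class I molecules. Of 37 interferon-response genes tested, 15 were higher in the 4 against 12 comparison (median log2 fold change 2.08), 22 did not pass, and of 21 MHC class I and antigen processing genes 17 were higher (median 1.48), beside 16.8% higher over all genes. Among the 491 genes were 6 of the first list (Rsad2, Bst2, Cxcl10, Isg15, Dhx58 and Irf9, of which the last pair did not pass the 4 against 12 test) and 7 of the second (Tap1, H2-Q6, H2-Q4, H2-D1, H2-K1, H2-Q1 and Psmb10). Of the 6 leukocyte markers tested 3 were higher as well and 3 did not pass, and the ranges of their summed levels given above overlapped.

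Rsad2, an antiviral radical enzyme, was at 4.29 and 1.53 CPM in GM and 328 and 555 CPM in DM. The other GM libraries held 0.0251 to 0.383 CPM. In DM the MYOD-/- lines held 13.5 to 53.4 CPM and WT MUNC 0.294 and 0.364 CPM. Rsad2 was thus higher in DM in all 4 lines, though WT MUNC, at 0.143 and 0.0722 CPM in GM, rose little. In DM the line with the lowest level was WT MUNC. Bst2, the tetherin that holds virions at the cell surface, showed this order as well, with 9.56, 6.31, 1162 and 1172 CPM in the line, 0.614 to 2.38 CPM in the other GM libraries, 268 to 385 CPM in MYOD-/- DM and 4.89 and 3.39 CPM in WT MUNC DM. Isg15, a ubiquitin-like modifier, was at 11.6, 5.36, 633 and 774 CPM, against 0.271 to 1.15 CPM in GM and 4.91 to 285 CPM in DM. The chemokine Cxcl10 was at 9.54, 8.16, 66.3 and 121 CPM against 0.0475 to 0.551 CPM in GM and 0.565 to 41.3 CPM in DM. Ccl5, a chemokine outside both lists, was at 9.78, 7.55, 71.6 and 204 CPM against 0 to 0.764 CPM in GM and 1.10 to 24.6 CPM in DM. For all 5 genes the 3 other lines differed among themselves (adjusted p between 6.71e-05 and 0.00512, edgeR).

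Tap1, a subunit of the peptide transporter, was at 1.39 and 0.801 CPM in GM and 69.4 and 95.2 CPM in DM, against 0.144 to 0.482 CPM in GM and 0.440 to 22.5 CPM in DM. The classical MHC class I heavy chain H2-K1 was at 42.9, 43.7, 351 and 410.0 CPM against 18.4 to 21.5 CPM in GM and 31.6 to 146 CPM in DM (1.65 ± 0.30). The other classical heavy chain, H2-D1, was at 45.6, 45.4, 321 and 373 CPM against 17.9 to 22.6 CPM in GM and 29.4 to 123 CPM in DM (1.69 ± 0.28). The nonclassical H2-Q4 was at 6.50, 6.69, 105 and 114 CPM against 1.88 to 3.09 CPM in GM and 4.89 to 14.3 CPM in DM (2.69 ± 0.34). Reads of these H2 genes may be shared between near-identical copies.

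The counts on the interferon list depended on which lines and libraries entered. The 15 genes became 33 without the WT MUNC line, 5 without either of the MYOD-/- lines, 35 with a mean per group in place of the medium covariate, and 1 or 0 with replicate 1 or 2 alone. Bst2 no longer passed the 4 against 12 threshold without the WT-labelled EV GM replicate 1, DM replicate 1 or DM replicate 2.

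**Figure D3:**
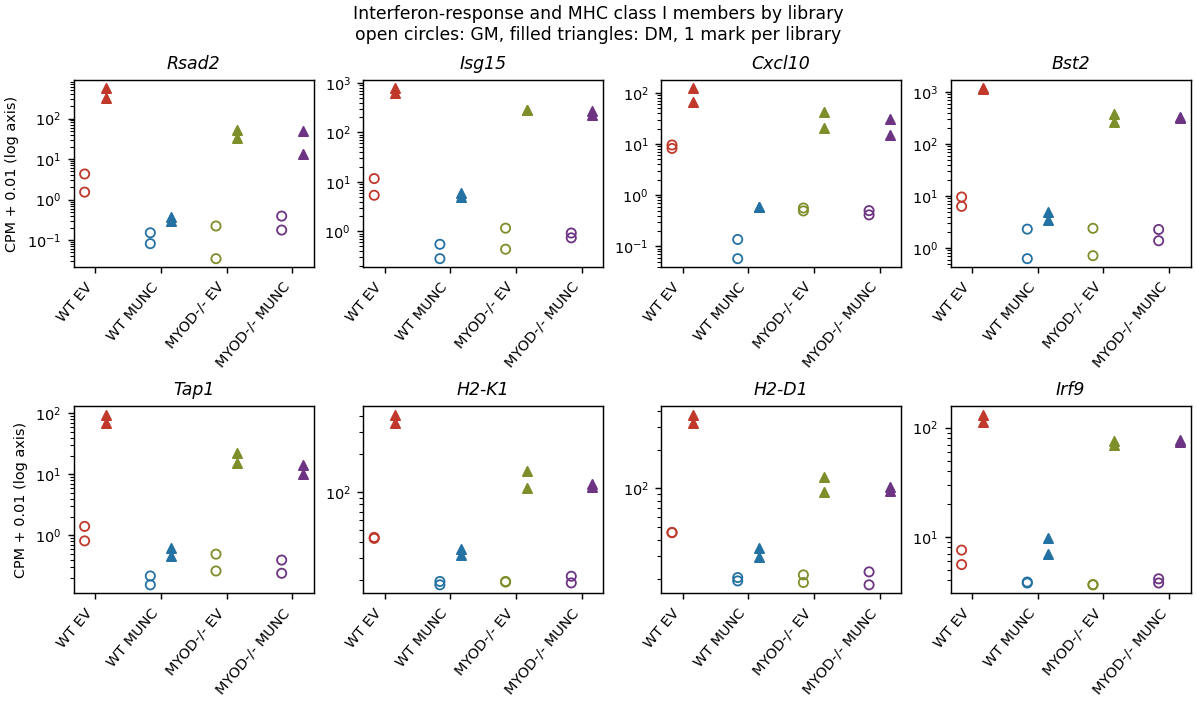
CPM plus 0.01 (log axis) of 8 interferon-response and MHC class I genes in every library, by line (x axis), with open circles for GM and filled triangles for DM. Each mark is 1 library: the 2 WT-labelled EV libraries of a medium lie above the 6 others of that medium for each gene, and the WT MUNC libraries are the lowest in DM.

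The promoters of Isg15, Rsad2, Cxcl10 and Bst2 are shown because they hold the core of the interferon-response element (GAAA, any 2 bases, GAAA, with both strands searched). The matches are in capitals, and in Rsad2 the match is on the opposite strand. The sequences are from RefSeq (GRCm38.p6), on the minus strand, from 250 bases before to 50 after the start, at chr4:156200769-156201068 (Isg15), chr12:26456403-26456702 (Rsad2), chr5:92348840-92349139 (Cxcl10) and chr8:71537423-71537722 (Bst2).
Isg15: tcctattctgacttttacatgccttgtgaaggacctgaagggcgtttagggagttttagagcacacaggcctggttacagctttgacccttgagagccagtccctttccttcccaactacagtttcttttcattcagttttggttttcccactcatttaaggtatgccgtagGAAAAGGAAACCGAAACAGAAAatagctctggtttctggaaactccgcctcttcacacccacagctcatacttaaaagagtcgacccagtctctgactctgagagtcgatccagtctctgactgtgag
Rsad2: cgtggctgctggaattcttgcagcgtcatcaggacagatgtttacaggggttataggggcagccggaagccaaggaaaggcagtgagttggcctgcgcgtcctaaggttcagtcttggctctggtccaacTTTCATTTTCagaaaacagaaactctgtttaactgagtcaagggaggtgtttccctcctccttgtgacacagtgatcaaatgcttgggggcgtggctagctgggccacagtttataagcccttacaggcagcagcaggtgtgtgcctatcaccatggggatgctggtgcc
Cxcl10: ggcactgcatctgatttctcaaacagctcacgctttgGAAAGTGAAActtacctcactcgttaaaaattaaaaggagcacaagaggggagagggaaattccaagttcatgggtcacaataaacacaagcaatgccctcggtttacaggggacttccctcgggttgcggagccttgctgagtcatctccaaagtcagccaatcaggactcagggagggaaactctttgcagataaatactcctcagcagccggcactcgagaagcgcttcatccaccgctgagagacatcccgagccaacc
Bst2: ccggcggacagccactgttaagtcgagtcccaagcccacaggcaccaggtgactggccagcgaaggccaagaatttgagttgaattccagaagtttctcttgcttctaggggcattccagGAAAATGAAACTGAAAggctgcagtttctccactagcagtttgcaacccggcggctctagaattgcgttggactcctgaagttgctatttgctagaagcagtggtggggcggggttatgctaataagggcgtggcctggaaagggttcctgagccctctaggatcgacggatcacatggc
This core was in 3.11% of the 11722 promoters of tested genes, in 7.58% of the 211 promoters of higher genes (16 promoters), in 1.16% of the 172 of lower genes (2 promoters) and in 4 of the 11 of interferon and MHC genes among the higher ones. Of the 16, the other 12 belong to genes outside those lists. A match describes letters in the window only.

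Chromosome 11 held more of the higher genes than any other chromosome. Of the 272 higher genes 96 lay there, of 1235 genes tested on it (7.77%), against 176 of 13737 elsewhere (1.28%), while 9 of the 219 lower genes did. Its higher genes differed by less, with a median log2 fold change of 0.85 against 1.95 for higher genes of other chromosomes. The median over all its tested genes was 0.34, 76.2% of them were above 0, and 42.8% were called higher in the 4 against 12 comparison, against 14.4% of genes elsewhere. The medians of the 6 contrasts were 0.32 to 0.38, and that of the genes outside the 491 was 0.29. Medians of the other chromosomes were between -0.24 (chromosome 16) and 0.14 (chromosome 14).

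Library by library, the median deviation of chromosome 11 genes from the mean of the same medium (log2(CPM + 1), 974 genes of at least 1 CPM) was 0.19 to 0.28 in the 4 WT-labelled EV libraries and -0.10 to -0.03 in the other 12. The groups did not overlap. They did not overlap on several other chromosomes either, with the WT-labelled EV libraries lower on chromosomes 1, 5, 10 and 16 and higher on others such as 14. On chromosome 16 these libraries lay at -0.21 to -0.13 against 0.02 to 0.11 in the others. On chromosomes 16 and 5, 26.6% and 24.4% of genes were called lower, against 13.2% of all genes outside chromosome 11. On any chromosome other than 11 the WT-labelled EV libraries lay between -0.21 and 0.16. WT MUNC had shifts of its own: against WT MUNC the median of the WT-labelled EV line was 0.31 (GM) and 0.26 (DM) on chromosome 6 and -0.22 and -0.14 on chromosome 13, and against the MYOD-/- lines it was 0.04 to 0.07 and 0.03 to 0.12.

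**Figure D4:**
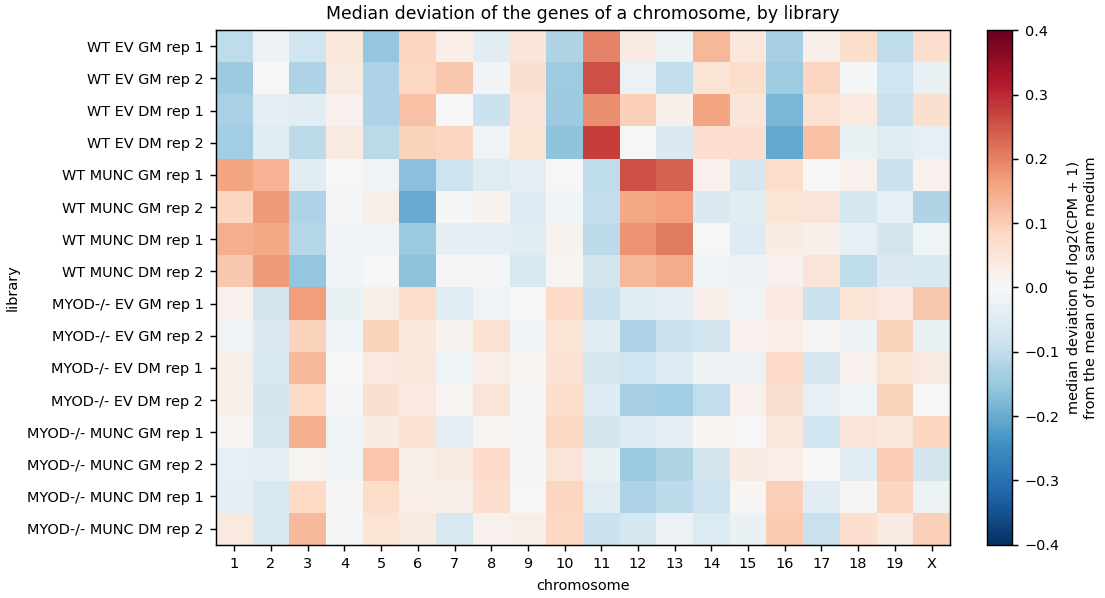
Median deviation of log2(CPM + 1) from the mean of the same medium (colour) for the genes of each chromosome (x axis) in each library (y axis). Chromosome 11 is at 0.19 to 0.28 in the 4 WT-labelled EV libraries and at -0.10 to -0.03 in the 12 others.

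Along chromosome 11 the shift was not even. In consecutive blocks of 50 tested genes, blocks 1 to 6, which end at 58179580, had medians of 0.02 to 0.22. Blocks 7 to 25, from 58183843 to the end, had medians of 0.26 to 0.61, and 38% to 62% of their genes were called higher against 10% to 26% in the first 6. Among the higher genes of the distal part were many with small and even differences, such as Sap30bp, a transcription regulator, at 56.6, 53.5, 56.3 and 57.6 CPM against 35.1 to 41.3 CPM (0.56 ± 0.05). Galk1, galactokinase, was at 102, 85.2, 75.8 and 77.7 CPM against 56.2 to 70.2 CPM in GM and 33.4 to 51.1 CPM in DM (0.75 ± 0.10). Itgb4, the integrin of hemidesmosomes, lies between them and was at 13.2, 22.7, 7.54 and 14.4 CPM against 0.975 to 3.32 CPM (2.90 ± 0.27). Galk1 and Itgb4 overlap by their ends.

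**Figure D5:**
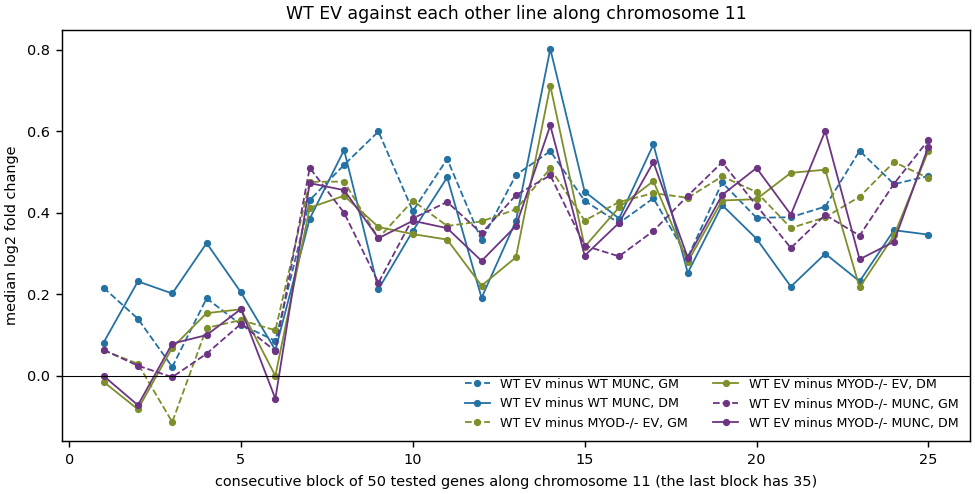
Median log2 fold change (y axis) of the WT-labelled EV line minus each of the other 3 lines, in GM (dashed) and DM (solid), for consecutive blocks of 50 tested genes along chromosome 11 (x axis, the last block has 35). From block 7 on all 6 lines stay above 0.19, and in blocks 1 to 6 they lie between -0.11 and 0.33.

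Other higher genes also lay side by side. Hoxb6, Hoxb5 and Hoxb3, patterning transcription factors of the Hoxb cluster on chromosome 11 (96292814 to 96347930), were at 0.691 to 1.47, 0.340 to 0.477 and 1.26 to 2.79 CPM in the WT-labelled EV line. No other library exceeded 0.158, 0.0982 and 0.334 CPM. Hoxc12, of the Hoxc cluster on chromosome 15, went the other way, with 1, 1, 1 and 2 counts in the line against 0.479 to 1.75 CPM. Of 27 Hox genes tested, 5 were higher and 2 lower, the higher share being near the 16.8% over all genes (12.5% lower). With chromosome 11 genes left out, 2 were higher and 2 lower.

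Naip2, Naip5 and Naip6, sensors of bacterial proteins on chromosome 13 (100144063 to 100316616), were higher together. Naip2 was at 19.95, 15.2, 43.5 and 50.7 CPM against 2.96 to 15.3 CPM (2.10 ± 0.26). Naip5 was at 2.23, 1.70, 10.4 and 9.38 CPM against 0.451 to 0.785 CPM, and Naip6 at 2.54, 1.70, 11.6 and 9.93 CPM against 0.325 to 1.24 CPM. The Naip genes are close paralogs whose reads may be shared. Ifitm3 and Ifitm6, interferon-induced membrane proteins on chromosome 7, and their neighbour B4galnt4, a glycosyltransferase, formed another run (1.19 ± 0.18, 3.59 ± 0.28 and 1.95 ± 0.23). Psme2b, 9930111J21Rik1 and Tgtp1, an interferon-induced GTPase, formed a run on chromosome 11 (48945345 to 48992246), and the first and second of them overlap by their ends. Tgtp1 was at 3.56, 2.19, 835 and 518 CPM against 0.0752 to 0.538 CPM in GM and 0.976 to 143 CPM in DM.

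The only run of 3 lower genes was on chromosome 16 (38598343 to 39027159). Arhgap31 was at 83.5, 103, 92.9 and 109 CPM against 133 to 269.9 CPM (-0.98 ± 0.12). B4galt4, a galactosyltransferase, was at 0.136 to 0.428 CPM against 3.03 to 21.1 CPM. Igsf11, a cell adhesion protein, had 3, 4, 2 and 8 counts against 2.45 to 58.2 CPM, and WT MUNC was the lowest of the other lines (2.45 to 12.1 CPM). Against the other 12 libraries the difference was -4.82 ± 0.55 for B4galt4 and -8.52 ± 1.13 for Igsf11. Against WT MUNC in DM it was -6.13 for B4galt4 and -5.47 for Igsf11, so the order of these genes was not the same in every contrast.

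The dependence of the difference on medium was not asked for by the rule and was tested in the model with a mean per group. It combines the same 6 contrasts that chose the 491 genes. Its p-values and counts for those genes are therefore not independent of that choice. Over all genes 983 passed (6.57%), 460 with a more positive (3.07%) and 523 with a more negative (3.49%) difference in DM, and with chromosome 11 genes left out the split was 648 and 348. Of the 491 genes 59 passed (12.02%), 30 of the higher and 29 of the lower ones. Igf2bp2 was nearer to the other lines in DM (3.48 ± 0.28, adjusted p = 0.000291, edgeR). H2-Q4 was further above them in DM (2.23 ± 0.21, adjusted p = 0.000386, edgeR), as was the glutathione transferase gene Gstt3, at 2.80, 2.67, 6.05 and 6.47 CPM against 0.0957 to 0.589 CPM (2.29 ± 0.28, adjusted p = 0.00159, edgeR). Dll1 was further below them in DM (-2.45 ± 0.65, adjusted p = 0.0478, edgeR). The count over all genes fell to 462 and 192 without the WT-labelled EV GM replicate 1 or 2 and to 267 without its DM replicate 2. It was 629 and 630 without WT MUNC DM replicate 1 or 2, 609 and 593 without MYOD-/- EV DM replicate 1 or 2, and 650 without MYOD-/- MUNC DM replicate 1.

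Spread among the other 3 lines was tested with contrasts that hold no WT-labelled EV library. It was called for 2892 of all genes (19.3%) and for 155 of the 491 (31.6%), 73 of the higher and 82 of the lower ones. The total was 1689 and 1532 without WT MUNC DM replicate 1 or 2. In a pair of examples WT MUNC was the line apart. Pogk, a gene derived from a transposable element, was at 41.6 to 55.4 CPM in WT MUNC, 6.34 to 10.7 CPM in the MYOD-/- lines and 0.204 to 0.679 CPM in the WT-labelled EV line (adjusted p = 2.24e-05, edgeR). Zfp704, a zinc finger protein, was at 5.80 to 11.7 CPM in WT MUNC, 12 to 20.3 CPM in GM and 48.4 to 89.5 CPM in DM in the MYOD-/- lines, and 0.0548 to 0.133 CPM in the WT-labelled EV line (adjusted p = 8.28e-05, edgeR). Perp, Crot, Dmtf1, Dysf and Thsd7a, an adhesion protein with thrombospondin repeats, are examples where no spread among the other lines was detected (adjusted p from 0.621 to 0.997, edgeR), which does not show that those lines are equal.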

How the data were processed

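Poly(A) RNA of 16 libraries was sequenced in pairs of reads after directional library preparation, per the labels. The submitters' processing notes name bcl2fastq, kallisto and genome build mm10. The tools' versions, the transcript set and the strand setting were not stated there. The authors deposited 1 table per library with the estimated count, TPM, length and effective length (other values) of each of 35818 transcripts, per the file headers. kallisto divides fragments that fit several transcripts, so close paralogs and overlapping genes can share counts. Gene symbols came from a RefSeq table (GRCm38.p6) or GENCODE metadata, which gave 24497 genes, and 138 without a symbol (0.280% to 0.941% of counts) were left out.

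Estimated counts were summed per gene, rounded and analysed in R 4.3.3 with edgeR 4.0.16 (TMM, filterByExpr, quasi-likelihood F test, Benjamini-Hochberg adjustment over 14972 genes, threshold 0.05). A model with medium and line (13 residual degrees of freedom) gave 4 against 12 libraries. A model with 8 group means (8 residual degrees of freedom) gave the 6 contrasts, the dependence on medium and the spread among the other lines. CPM is TMM-scaled. The analysis was tested on simulated data, which held no spread among the other lines and no effect shared by replicate number, unlike these libraries. Lists are described by counts and medians without a set test. Myod1 and Gm45923 were always named. Other genes were named by size within the 491 (15 each way, at least 5 CPM in every group of the higher side), as up to 3 members of each list, as runs of at least 3 neighbours, and as the 2 on each side of the threshold. Further genes of the lists and around Abcb1b were named after their values were seen. The genes and lists were chosen with earlier results of these data known. Alternatives were DESeq2 1.42.0, its size factors, other filters and thresholds, limma 3.58.1 on log2(TPM + 1) from the authors' deposited TPM, Zrsr1 or chromosome 11 genes left out (the latter chosen after seeing the data), a replicate block, single replicates, and lines or libraries left out.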

Additional observations from a re-analysis of the deposited data

Results flagged for a closer look

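The difference between the WT-labelled EV line and the other lines changed with the medium for 10 of the genes named by the rule. Values are the difference in DM minus that in GM, on the log2 scale ± SE, with the edgeR quasi-likelihood test of that change adjusted over all genes. The genes were chosen by contrasts of the same model, so these p-values are not independent of that choice.

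Genes higher in the line and further above the others in DM were H2-Q4 (2.23 ± 0.21, adjusted p = 0.000386), Tap1 (2.03 ± 0.43, 0.0199), Naip5 (2.15 ± 0.30, 0.00334), Gstt3 (2.29 ± 0.28, 0.00159), Loxhd1 (2.78 ± 0.61, 0.0233) and Sh3bgrl2 (1.81 ± 0.47, 0.0431). Of these, H2-Q4, Tap1, Naip5 and Gstt3 were higher in DM than in GM in the line, whereas for Loxhd1, a stereocilia protein gene, it was the others that were lower in DM (0.144 to 0.445 CPM against 1.41 to 3.12 CPM in GM). The line held Loxhd1 at 21.3 and 12.2 CPM in GM and 7.81 and 22.7 CPM in DM. Sh3bgrl2, a small thioredoxin-like protein gene, was at 15.1, 14.6, 8.20 and 15.3 CPM in the line and at 0.268 to 1.63 CPM in GM and 0.0711 to 0.805 CPM in DM in the others.

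Genes lower in the line and further below the others in DM were Dll1 (-2.45 ± 0.65, 0.0478), Synpo2 (-1.68 ± 0.45, 0.0476) and Zfp704 (-2.18 ± 0.56, 0.0426), all of which were higher in DM than in GM in the MYOD-/- lines. Igf2bp2, also lower in the line, was nearer to the others in DM (3.48 ± 0.28, 0.000291).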

How the results depend on the processing

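Estimated counts rest on 2 libraries per group, so 1 library can move a count of genes strongly, and levels under about 0.05 CPM rest on a few counts. A threshold of 0.01 gave 2385 genes for 4 against 12 libraries, 211 for all 6 contrasts, 221 for the dependence on medium and 1547 for the spread among the other lines (4376, 491, 983 and 2892 as reported). Replicate 1 libraries alone gave 1596 and replicate 2 libraries alone 522 for 4 against 12. At least 1 on the log2 scale in all 6 contrasts left 289 genes. The dependence on medium counted 1836 genes with DESeq2 and 1834 with limma on log2(TPM + 1). Its split of 460 more positive and 523 more negative differences turned with DESeq2's size factors (520 and 448), DESeq2 (1015 and 821), no filter (490 and 374), a filter of 5 CPM (507 and 428) and without Zrsr1 (507 and 456). Leaving out 1 library gave 2744 to 4608 genes for 4 against 12, 245 to 418 for all 6 contrasts, 192 to 1289 for the dependence on medium and 1532 to 3326 for the spread. Counts on several lists rose with a mean per group and without the WT MUNC line: imprinted genes from 7 to 15 and 18, interstitial collagens from 1 to 9 and 8, matrix proteases from 6 to 13 and 13, TGF-beta and BMP genes from 4 to 14 and 10, and cell cycle genes from 6 to 10 and 12. With a mean per group alone, chemokines rose from 11 to 19, insulin-like growth factor genes from 7 to 11 and satellite markers from 4 to 7, and without WT MUNC glutathione genes rose from 10 to 17. The causes were not tested, except that the stricter thresholds and the size criterion keep fewer genes and single replicates use fewer libraries by construction.

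The deviations of same-numbered libraries from their group means correlated at -0.0126 to 0.712 over 28 pairs of groups, above 0.1 in 23. All 16 libraries correlated best with a library of their own number. Libraries of the same number thus shared an effect in most groups. Because not every pair was above 0.1, the main models held no replicate term and left this effect in the residual spread. With a replicate block the counts were 741 for all 6 contrasts (489 of the 491 among them), 1853 for the dependence on medium, 4823 for 4 against 12 and 4101 for the spread. Of the 491 genes, 480 were also found with DESeq2, 401 without a filter on low counts and 358 with limma on TPM. For 78 named genes, 2348 of 2395 combinations of gene and setting kept the direction and the side of the threshold, 47 lost the call (21 genes) and 0 reversed. The median of chromosome 11 minus that of the other genes was 0.362 and ranged from 0.254 (limma on TPM) to 0.389 over the settings.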

Other observations

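Counts for the remaining gene lists in the 4 against 12 comparison (edgeR quasi-likelihood test) are read beside 16.8% higher and 12.5% lower over all genes tested, and several were near those shares or below them. Of 31 glutathione and NRF2 target genes 8 were higher and 2 lower, and 6 of the 8 were transferases of the Gst family. Gstp2 was at 1.99, 3.93, 4.63 and 3.34 CPM against 0.336 to 1.25 CPM (2.35 ± 0.32, adjusted p = 8.1e-05), Gstm2 at 35.4 to 64.1 CPM against 6.39 to 38.6 CPM (1.29 ± 0.23, adjusted p = 0.000806), and Hmox1, heme oxygenase, at 70.0 to 123 CPM against 24.6 to 107 CPM (0.96 ± 0.26, adjusted p = 0.0110). Of 28 cell cycle inhibitors and p53 targets the 11 higher ones included Trp53 itself, which lies in the distal part of chromosome 11 (0.58 ± 0.08), Cdkn1a, the p21 inhibitor (0.58 ± 0.10), and Ccng1 (0.76 ± 0.14). Of 38 chemokine and cytokine genes 8 were higher and 3 lower, among them Ccl9, at 121, 47.0, 182 and 203 CPM against 2.56 to 55.7 CPM (2.81 ± 0.42).

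Of 29 basement membrane and integrin genes 10 were lower and 5 higher. The collagen IV chains Col4a1 and Col4a2 were lower (-1.41 ± 0.30 and -1.23 ± 0.34), while the integrin chains Itgb4, Itgb3, Itgb7 and Itga6 were higher. With chromosome 11 genes left out, Itgb4 among them, 3 genes of the list were higher and 8 lower. Of 37 interstitial collagen and matrix genes 1 was higher. Of 33 clustered protocadherins 13 were lower and 1 higher, the higher one being Pcdhgb7, at 3.12, 1.74, 9.28 and 10.002 CPM against 0.451 to 1.34 CPM (2.53 ± 0.30, adjusted p = 3.1e-05). Of 38 imprinted genes 5 were lower and 2 higher. Among them Peg13, a noncoding RNA, was at 3.02, 1.93, 4.06 and 2.44 CPM against 10.6 to 31.0 CPM, and Herc3 was at 26.7 to 60.8 CPM against 14.9 to 27.2 CPM. Of 17 satellite and reserve cell markers 3 were lower and 1 higher, the higher one being the growth factor receptor Met (0.72 ± 0.13). Of 13 germline genes 4 were lower and 2 higher, and of 28 matrix proteases and inhibitors 3 were lower and 3 higher.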
